A study of Mus musculus with 18 samples.

Results

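The 10 genes described here are those of the mouse mitochondrial genome that were taken by symbol from the 3 gene count tables of the study, the 2 ribosomal RNA (rRNA) genes mt-Rnr1 and mt-Rnr2 and the 8 protein-coding genes mt-Nd1, mt-Nd2, mt-Nd4, mt-Co1, mt-Co2, mt-Co3, mt-Cytb and mt-Atp6. They are 10 of the 21018 genes listed in at least 1 table, and each was listed in all 3. The rule used names alone, and they were picked with earlier results of these data known. The study compared 3 RNA-Seq kits on liver RNA of the same 6 male C57/B6J mice, aged 12 weeks. Mice I9579, I9582 and I9583 had received 20 μg/Kg of IL-1β, an inflammatory cytokine to which hepatocytes respond with acute-phase proteins, and mice U9574, U9575 and U9576 saline, both by intraperitoneal injection, and livers were taken 4 hours later. Pico is a stranded total RNA kit, used on 1.7 to 2.6 ng of RNA, that removes ribosomal cDNA with the enzyme ZapR. V4 is an unstranded kit that primes cDNA on poly(A) tails, used on 0.8 to 1.3 ng. TruSeq is a stranded poly(A) kit used on 200 ng. There was 1 library per mouse and kit, so that each of the 6 groups of kit and treatment held 3 libraries.

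Mitochondria keep a small circular genome of their own. Both of its strands are transcribed by a dedicated RNA polymerase into long precursors, which are cut at the tRNAs that lie between most of the genes. The mRNAs code for core subunits of the respiratory chain and of ATP synthase and mostly receive short poly(A) tails, whereas the rRNAs of the mitochondrial ribosome carry at most a few added adenines. Hepatocytes are rich in mitochondria, and mitochondrial transcripts are abundant in liver.

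Several properties of the tables bear on these genes. The counts are those left after the authors' removal of ribosomal reads, and the ribosomal sequences of the study included mitochondrial rRNA, so the counts of mt-Rnr1 and mt-Rnr2 are what remained after that step and not their level in the RNA. TruSeq libraries held 12348864 to 12858237 counts, V4 libraries 12013453 to 12352473 and Pico libraries 4024632 to 4134070, and every member had at least 58 counts in every library. The tables were normalized separately, and each kit cannot be told apart from its run and input. TruSeq also differed from Pico and V4 in sequencer and read length (125 bp against 150 bp), which Pico and V4 shared. Genes whose longest annotated transcript had at least 3000 bases held 16.2% to 19.2% of the nuclear gene counts in V4. They held 44.6% to 47.2% in Pico and 34.8% to 37.5% in TruSeq. Of the libraries, V4 U9576 stood farthest from the others of its group, with a median absolute log2 deviation of 0.419 over genes that averaged 20 counts or more, where the other 5 V4 libraries lay between 0.28 and 0.31. The members of V4 I9579 deviated in the same direction. The V4 to TruSeq ratios of the rRNAs and mt-Co1 and the V4 response to IL-1β are also given without these mice. Other V4 values include all mice. All 6 hepatocyte markers (Alb, Apoa1, Ttr, Cps1, Pck1 and Tat) were above 0 in every kit, and muscle markers summed to at most 1 count in a library.

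Part of the mitochondrial genome has a close copy in the nucleus, which sets how far reads of a member can be assigned to it. In the mm9 genome, chromosome 1 carries on its minus strand, at chr1:24618374-24623027, a copy of mitochondrial positions 6390 to 11042, which is 4654 bases long and 99.9% identical. Counted along the mitochondrial genome, with the mitochondrial base first, the substitutions in the copy are A6393T in mt-Co1 and T9461C in mt-Nd3, and the copy has 1 inserted A in the tRNA gene mt-Tr. The stretch around T9461C is shown because it is among the few places where a read can tell the copy from its source. The base that differs is in capitals.
Mitochondrial genome, around position 9461: ccagaagagagtaatTaacctgtacactgt
Chromosome 1 copy: ccagaagagagtaatCaacctgtacactgt
Of all 150-base windows of a gene, the share that also occurs without a difference in the nucleus was 100% for mt-Co2, mt-Co3 and mt-Atp6, 59.2% for mt-Nd4 and 23.6% for mt-Co1, and 0% for mt-Rnr1, mt-Rnr2, mt-Nd1, mt-Nd2 and mt-Cytb. Chromosome 2 holds a less close copy of mitochondrial positions 4441 to 7699, 97.4% identical over 3260 aligned bases. The listed genes Gm13339, Gm13340 and Gm13341 lie in it, over the copies of part of mt-Nd2, of mt-Co1 and of mt-Co2. Shorter copies lie elsewhere in the nucleus. How reads that matched several places were counted was not tested, so the levels of mt-Co2, mt-Co3, mt-Atp6, mt-Nd4 and, in part, mt-Co1 are uncertain.

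All 10 members lie on the plus strand of the reference mitochondrial genome (mm9, 16299 bases). The rRNA gene mt-Rnr1, the 12S rRNA of the small ribosomal subunit, spans chrM:70-1024, and mt-Rnr2, the 16S rRNA of the large subunit, chrM:1094-2675. Of the complex I subunits, mt-Nd1 spans chrM:2751-3707, mt-Nd2 chrM:3914-4951 and mt-Nd4 chrM:10167-11544. The cytochrome c oxidase subunits mt-Co1, mt-Co2 and mt-Co3 span chrM:5328-6872, chrM:7013-7696 and chrM:8607-9390. The gene of cytochrome b of complex III, mt-Cytb, spans chrM:14145-15288, and that of the ATP synthase subunit 6, mt-Atp6, chrM:7927-8607. The last 30 bases of 4 of these genes are shown, with the letters of the stop codon that the genome encodes in capitals, because the stop of some mitochondrial mRNAs is completed only by the poly(A) tail on which V4 and TruSeq rely.
mt-Co1: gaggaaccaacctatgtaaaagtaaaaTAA
mt-Nd1: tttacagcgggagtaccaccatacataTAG
mt-Co3: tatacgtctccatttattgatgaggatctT
mt-Cytb: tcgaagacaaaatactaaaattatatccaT
The genes mt-Co3, mt-Nd4 and mt-Cytb ended in a lone T of a stop codon, and the other 5 member mRNAs in a whole TAA or TAG. In the annotation mt-Atp6 shares its last base with the first of mt-Co3.

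The share of a library's gene counts that fell on the 10 members differed between kits far more than between mice. It was 8.73%, 8.62% and 8.44% after IL-1β and 9.25%, 9.93% and 9.63% after saline in Pico. In TruSeq it was 4.85%, 4.53% and 4.57% after IL-1β and 5.45%, 6.1% and 5.51% after saline. In V4 it was 0.969%, 0.987% and 1.14% after IL-1β and 1.52%, 1.56% and 0.791% after saline. Each mouse had its highest share in Pico and its lowest in V4. Within mice the log2 ratio was 0.82 ± 0.08 (mean ± SD, n = 6 mice) for Pico to TruSeq, -2.19 ± 0.35 for V4 to TruSeq and 3.01 ± 0.37 for Pico to V4. The larger share in Pico was rRNA: the rRNAs made up 53.7% to 57.7% of the members' counts in Pico, 1.8% to 2.54% in TruSeq and 0.991% to 5.25% in V4. With the 8 mRNAs alone the direction between Pico and TruSeq turned, with 3.76% to 4.4% of the counts in Pico and 4.41% to 5.98% in TruSeq and a log2 ratio of -0.30 ± 0.12, lower in Pico in 6 of 6 mice. No p is given for these sums.

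**Figure D1:**
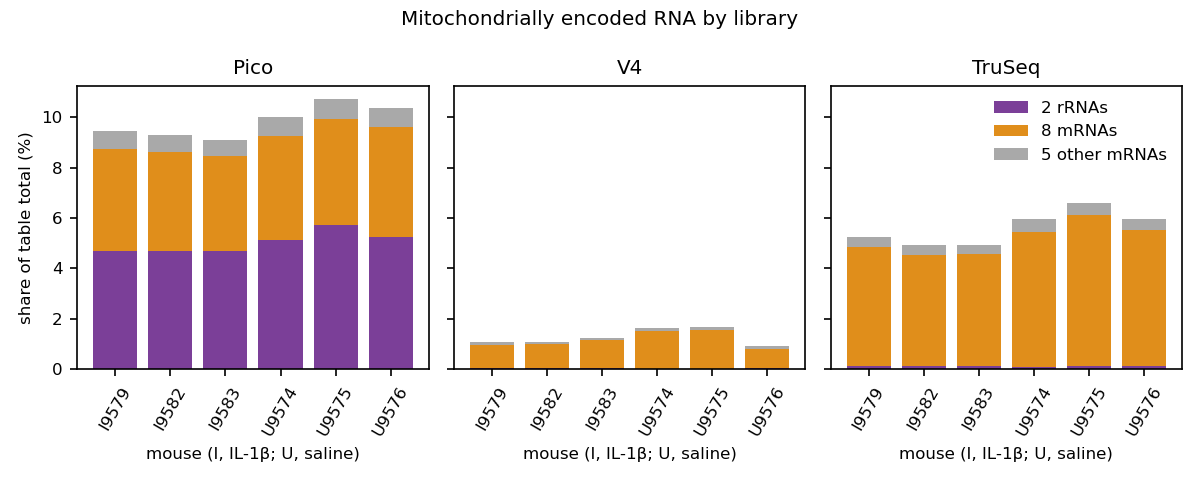
Share of each library's gene counts, in percent, on the 2 mitochondrial rRNAs, the 8 member mRNAs and the 5 other mitochondrial mRNAs, with a stacked bar per mouse and a panel per kit. The rRNA part is 4.69% to 5.73% in Pico and at most 0.127% in a TruSeq library.

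The 2 rRNAs separated Pico from the other kits more than any other member did. The 16S rRNA mt-Rnr2 held, of the Pico counts, 3.84%, 3.88% and 3.83% in the IL-1β mice I9579, I9582 and I9583 and 4.22%, 4.64% and 4.33% in the saline mice U9574, U9575 and U9576. In TruSeq it held 0.0724%, 0.081% and 0.0719% after IL-1β and 0.0685%, 0.0872% and 0.0696% after saline. In V4 it held 0.0306%, 0.0206% and 0.0196% after IL-1β and 0.0146%, 0.0168% and 0.037% after saline. No library of another kit reached a value of Pico, and within V4 the libraries I9579 and U9576 held the highest values. The 12S rRNA mt-Rnr1 held 0.849%, 0.803% and 0.856% after IL-1β and 0.905%, 1.09% and 0.903% after saline in Pico. In TruSeq its share was 0.034%, 0.0339% and 0.0338% after IL-1β and 0.0297%, 0.0394% and 0.0312% after saline. In V4 it was 0.00296%, 0.00112% and 0.00142% after IL-1β and 0.000483%, 0.000513% and 0.00448% after saline, from 58 counts in U9574 to 553 in U9576. The rRNAs were thus listed in all libraries of the poly(A) kits, but at low shares. Pico exceeded TruSeq by log2 5.78 ± 0.14 for mt-Rnr2 (55-fold) and 4.74 ± 0.14 for mt-Rnr1 (26.7-fold). V4 lay below TruSeq by log2 values of -1.77 ± 0.58 for mt-Rnr2 and -4.66 ± 1.34 for mt-Rnr1, and without I9579 and U9576 of -2.12 ± 0.23 and -5.42 ± 0.80. Both rRNAs were higher in Pico than in TruSeq in 6 of 6 mice, as were 31.9% of the 9569 genes compared. The exact two-sided sign-flip test over the 6 mice gave p = 0.0312, the smallest it can give, with an adjusted p of 0.0537 over all genes. Every gene with 1 direction in 6 of 6 mice shares both values, whatever the size of its difference. The ratio of mt-Rnr2 to mt-Rnr1 counts was 4.59 ± 0.215 in Pico (mean ± SD, n = 6), 2.23 ± 0.102 in TruSeq and 8.27 to 32.7 in V4.

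The mRNAs differed less between Pico and TruSeq and in both directions. The subunit gene mt-Co1, at the catalytic core of cytochrome c oxidase, was the most abundant mRNA member of both kits, with 1.69%, 1.64% and 1.52% after IL-1β and 1.71%, 1.72% and 1.87% after saline in Pico. In TruSeq its share was 2.06%, 1.96% and 1.84% after IL-1β and 2.36%, 2.6% and 2.41% after saline, and in V4 0.234%, 0.322% and 0.362% after IL-1β and 0.545%, 0.555% and 0.106% after saline. The lowest V4 value, that of U9576, was far under those of the other saline mice, whereas the same mouse had the highest value of Pico. Of the members, 4 were higher in Pico than in TruSeq in 6 of 6 mice, both rRNAs, mt-Atp6 and mt-Co3. Another 4 were lower in 6 of 6 mice, as were 26.3% of all genes compared: mt-Nd2 at log2 -0.67 ± 0.11, mt-Cytb at -0.42 ± 0.10, mt-Co1 at -0.37 ± 0.13 and mt-Nd1 at -0.26 ± 0.13. The median over all genes was 0.05. For mt-Nd4 (-0.04 ± 0.14) and mt-Co2 (0.11 ± 0.18) the direction varied between mice. Among the member mRNAs, mt-Atp6 stood out with log2 2.60 ± 0.16 (6.07-fold higher in Pico). Its neighbours mt-Atp8 (0.12 ± 0.14), which overlaps it by 43 bases, and mt-Co3 (0.23 ± 0.13) lay near 0. Of the mRNAs that are not members, mt-Nd6 (2.23 ± 0.46), mt-Nd4l (2.06 ± 0.22) and mt-Nd5 (0.73 ± 0.13) were also higher in Pico in 6 of 6 mice. In 6 of 6 mice mt-Nd3 was lower (-0.85 ± 0.17). The share of mt-Atp6 was 0.181%, 0.197% and 0.181% after IL-1β and 0.208%, 0.206% and 0.208% after saline in Pico. In TruSeq the share of mt-Atp6 was 0.0302%, 0.0263% and 0.0328% after IL-1β and 0.0359%, 0.0373% and 0.0331% after saline. The count of mt-Atp6 was 4.24 ± 0.16 times that of mt-Co3 in Pico (mean ± SD, n = 6), 0.822 ± 0.0324 times in TruSeq and 0.767 ± 0.0442 times in V4.

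In V4 all 10 members held a lower share than in TruSeq in 6 of 6 mice, where 44% of the 10266 genes compared were lower and 27.4% higher in all mice and the median of all genes was -0.34. The largest differences among the mRNAs were those of mt-Nd2 (log2 -2.86 ± 0.15), mt-Co1 (-2.82 ± 0.90) and mt-Nd4 (-2.40 ± 0.24), and the smallest those of mt-Co3 (-0.80 ± 0.27) and mt-Atp6 (-0.90 ± 0.30). The exact sign-flip test gave an adjusted p of 0.0437 for each, the smallest of any gene. All genes with 1 direction in 6 of 6 mice share this value, whatever the size of their difference. The value of mt-Nd2 was among the lowest of all genes, of which the lowest twentieth lay under -2.68. Without I9579 and U9576 the difference of mt-Co1 was -2.32 ± 0.21 (n = 4). Against V4, Pico held a higher share of all 10 members in 6 of 6 mice, where 46.6% of the 8976 genes compared were higher and 29% lower. The log2 ratios ran from 1.03 ± 0.22 for mt-Co3 to 9.41 ± 1.37 for mt-Rnr1, with a median of all genes of 0.48. The sign-flip test gave an adjusted p of 0.0413 for each, again shared by all genes with 1 direction in 6 of 6 mice.

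**Figure D2:**
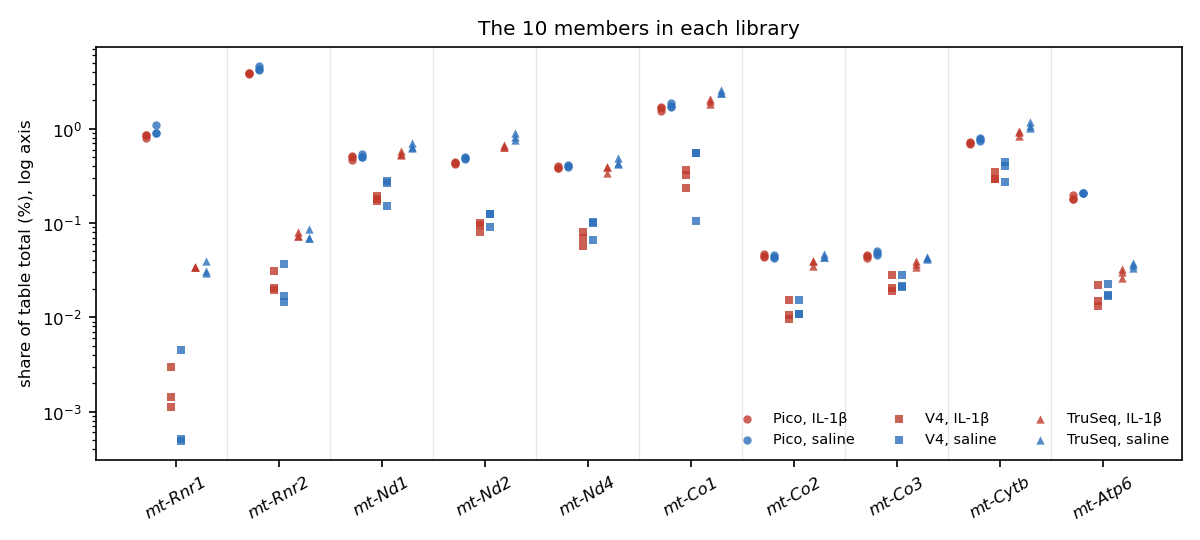
Share of the table total held by each member, in percent on a log axis, with a point per library, circles for Pico, squares for V4 and triangles for TruSeq, red for IL-1β and blue for saline. Pico holds 3.83% to 4.64% for mt-Rnr2 where TruSeq holds 0.0685% to 0.0872%, and mt-Atp6 is the mRNA with the widest gap between these kits.

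Per length, as counts per kb of gene per 1000000 counts, the members also took different orders in the kits. In Pico mt-Rnr2 was highest at 26067 ± 2069 (mean ± SD, n = 6), followed by mt-Co1 (10947 ± 726), mt-Rnr1 (9434 ± 1045), mt-Cytb (6457 ± 368), mt-Nd1 (5266 ± 287) and mt-Nd2 (4425 ± 313). The ranges of mt-Co1 and mt-Rnr1 overlapped, and so did those of mt-Nd1 and mt-Nd2. In TruSeq mt-Co1 was highest at 14269 ± 1899, above mt-Cytb (8678 ± 1012), mt-Nd2 (7078 ± 1016) and mt-Nd1 (6324 ± 683), whose ranges overlapped from each to the next. There the rRNAs, at 475 ± 46.6 and 352 ± 34.6, were among the lowest members. In V4 mt-Cytb led at 2991 ± 604, with ranges that overlapped those of mt-Co1 (2292 ± 1136) and mt-Nd1 (2158 ± 564), and mt-Rnr1 was the lowest member at 19.1 ± 16.6. The spread over the 6 libraries was widest in V4, where the coefficient of variation of a member's share was 17.4% to 86.5%, against 3.32% to 11.1% in Pico and 8.76% to 14.4% in TruSeq.

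The mRNAs wholly inside the chromosome 1 copy were low per length in TruSeq and V4, but level did not follow position throughout. The mRNAs mt-Co2, mt-Co3 and mt-Atp6, which lie inside it, held 603 ± 60.9, 504 ± 44.2 and 478 ± 58.4 per kb per 1000000 counts in TruSeq, against 2968 for mt-Nd4 and 14269 for mt-Co1, which lie partly inside, and 2282 (mt-Nd5) to 8678 (mt-Cytb) for the 4 mRNAs outside on the same strand. The lone mRNA of the other strand, mt-Nd6, lies outside and held 69.5. The highest of these, mt-Co1, belongs to the same enzyme as mt-Co2 and mt-Co3. In V4 the 3 genes inside the copy held 176 ± 36.8, 293 ± 51 and 259 ± 53.1. In Pico mt-Co2 and mt-Co3 held 648 ± 23.3 and 592 ± 36.3, but mt-Atp6 held 2890 ± 186, a range that overlapped that of mt-Nd4 (2866 ± 95.2). The gene spans written in the tables were wider than the annotation by 250 bases on either side in TruSeq, 294 in Pico and 298 in V4, and neighbouring spans overlapped. The share of a gene's bases outside the spans of other mitochondrial rRNA and mRNA genes was taken, in Pico and TruSeq, against the same strand. It was 7.2% and 20.1% for mt-Atp6, 33.5% and 44.8% for mt-Co3, 44.6% and 57.5% for mt-Co2, and at least 67.9% for the other members. In V4, taken against both strands, it was 6.02% for mt-Atp6, 32.5% for mt-Co3 and 43.4% for mt-Co2. For the other members it was at least 67.1% there. The part of the copy and of the overlapping spans in these levels was not tested.

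**Figure D3:**
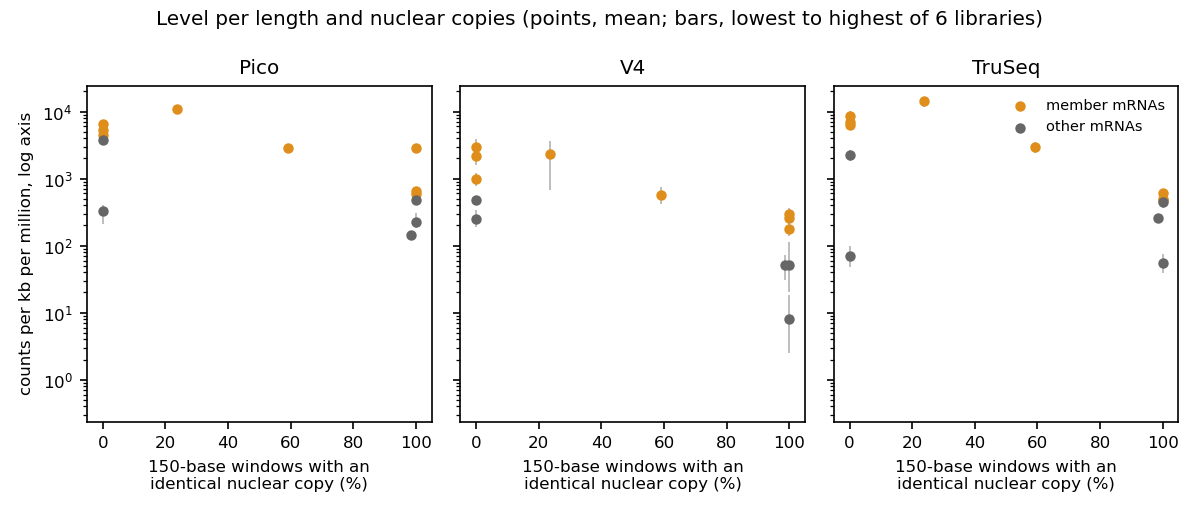
Counts per kb per 1000000 counts of the 13 mitochondrial mRNAs (log axis; points, mean, and bars, lowest to highest of 6 libraries) against the share of their 150-base windows, in percent, with an identical nuclear copy, with a panel per kit. In TruSeq the genes at 98.5% or more lie at 603 or less, and mt-Nd6, of the other strand, is the low gene at 0%.

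After IL-1β the members' share of the counts was lower than after saline in Pico and TruSeq, with no overlap between the groups. In Pico it was 8.44% to 8.73% against 9.25% to 9.93%, a log2 ratio of -0.16, and in TruSeq 4.53% to 4.85% against 5.45% to 6.1%, a log2 ratio of -0.29. With TMM-scaled sizes the log2 ratio was -0.027 in Pico and -0.13 in TruSeq. In V4 the share was 0.969% to 1.14% against 0.791% to 1.56%, and the groups overlapped. Summed hepatocyte markers moved with these shares, at 4.83% to 5.28% after IL-1β and 5.96% to 7% after saline in Pico and 6.49% to 7.09% after IL-1β and 8.77% to 10.4% after saline in TruSeq, and neutrophil markers (S100a8, S100a9 and Ly6g, of which Ly6g was listed in TruSeq alone) moved the other way, at 0.00188% to 0.00261% after IL-1β and 0.0000242% to 0.000171% after saline in Pico and 0.00311% to 0.00671% after IL-1β and 0.000148% to 0.000253% after saline in TruSeq. Kupffer cell markers (4 of 4 above 0) were also lower after IL-1β without overlap, at 0.00699% to 0.00967% after IL-1β and 0.013% to 0.0167% after saline in Pico and 0.00458% to 0.00666% after IL-1β and 0.0103% to 0.017% after saline in TruSeq. So were those of sinusoidal endothelium (4 of 4), at 0.0144% to 0.018% after IL-1β and 0.024% to 0.0245% after saline in Pico and 0.00489% to 0.00685% after IL-1β and 0.0104% to 0.0112% after saline in TruSeq. Stellate cell markers (3 of 3) stood at 0.0186% to 0.0255% after IL-1β and 0.0274% to 0.0327% after saline in Pico and 0.0134% to 0.0178% after IL-1β and 0.0246% to 0.0282% after saline in TruSeq. In V4 the hepatocyte markers were at 4.01% to 4.46% after IL-1β and 4.76% to 5.97% after saline. They did not overlap there, unlike the members' share. Cholangiocyte markers were higher after IL-1β without overlap in Pico (3 to 26 summed counts in a library) and TruSeq (35 to 61), and overlapped in V4. The part of these cell types in the result was not tested. In liver tissue, fewer cells of a type, less RNA per cell and lower levels of the marker RNAs alone cannot be told apart.

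In Pico, limma-voom called 3 of the 10 members at an adjusted p of at most 0.05, all lower after IL-1β, where 10.8% of all genes were called lower and 6.78% higher. They were mt-Rnr1 (log2 fold change -0.20 ± 0.06, SE; adjusted p = 0.0293), mt-Rnr2 (-0.19 ± 0.03, adjusted p = 5.1e-04) and mt-Nd2 (-0.17 ± 0.05, adjusted p = 0.0218). The shares of the rRNAs given above for Pico did not overlap between treatments. Those of mt-Nd2, a subunit of the membrane arm of complex I, were 0.444%, 0.432% and 0.419% after IL-1β and 0.488%, 0.501% and 0.472% after saline, again without overlap. With any mouse left out only mt-Rnr2 stayed called in every case, whereas mt-Rnr1 and mt-Nd2 stayed called only without U9576. In all, 6 members were lower without overlap, where 18.6% of all genes were. The other members had log2 fold changes from -0.15 ± 0.06 for mt-Atp6 to 0.04 ± 0.09 for mt-Co2. The median of the 10 members, -0.13, lay near that of all genes, -0.12.

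In TruSeq 3 members were called lower, where 21.8% of all genes were lower and 12.3% higher, and they were all mRNAs. The shares of mt-Co1 given above fell by 0.33 ± 0.08 on the log2 scale (adjusted p = 0.0106). The gene mt-Nd2 held 0.666%, 0.631% and 0.644% after IL-1β and 0.823%, 0.888% and 0.756% after saline, a fall of log2 -0.34 ± 0.08 (adjusted p = 0.0109), and mt-Nd1 0.585%, 0.544% and 0.531% after IL-1β and 0.628%, 0.706% and 0.638% after saline, a fall of log2 -0.25 ± 0.08 (adjusted p = 0.0434). The call of mt-Nd1 remained in 1 of the 6 fits without a mouse, those of mt-Co1 and mt-Nd2 in all 6. All 8 mRNAs were lower after IL-1β without overlap between the groups, where 27.9% of all genes were, with log2 fold changes of -0.34 to -0.20. The adjusted p of mt-Cytb, whose shares were 0.926%, 0.843% and 0.948% after IL-1β and 1.01%, 1.18% and 1.06% after saline, was 0.0517 at a log2 fold change of -0.25 ± 0.09. The rRNAs had log2 fold changes of 0.03 ± 0.11 and 0.01 ± 0.11, and their groups overlapped. The median of the 8 mRNAs was -0.25, that of all genes -0.17. The rRNA share of the members was higher after IL-1β in TruSeq, at 2.19% to 2.54% against 1.8% to 2.07%.

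These calls rest on the library totals as scale. With TMM factors, which moved the median of all genes from -0.17 to -0.01 in TruSeq, from -0.12 to 0.02 in Pico and from -0.22 to -0.06 in V4, limma-voom called 0 members in each kit, where it called 32.8% of all genes in TruSeq, 17.3% in Pico and 9.63% in V4. No member had an unadjusted p under 0.05 there, and edgeR and DESeq2 also called 0. Over all genes edgeR called 3198 higher and 3086 lower in TruSeq, 1819 and 1745 in Pico, and 930 and 1002 in V4. DESeq2 called 2973 higher and 2776 lower in TruSeq, 1544 and 1468 in Pico, and 1125 and 1205 in V4. The 8 mRNAs of TruSeq were still all below 0 under TMM, with a median of -0.09, while in Pico 4 of the 10 members were below 0 and the median was 0.01. Relative to the median of all genes, the fall with library totals was 0.16 for mt-Co1 and 0.17 for mt-Nd2 in TruSeq and 0.07 for mt-Rnr2 in Pico.

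**Figure D4:**
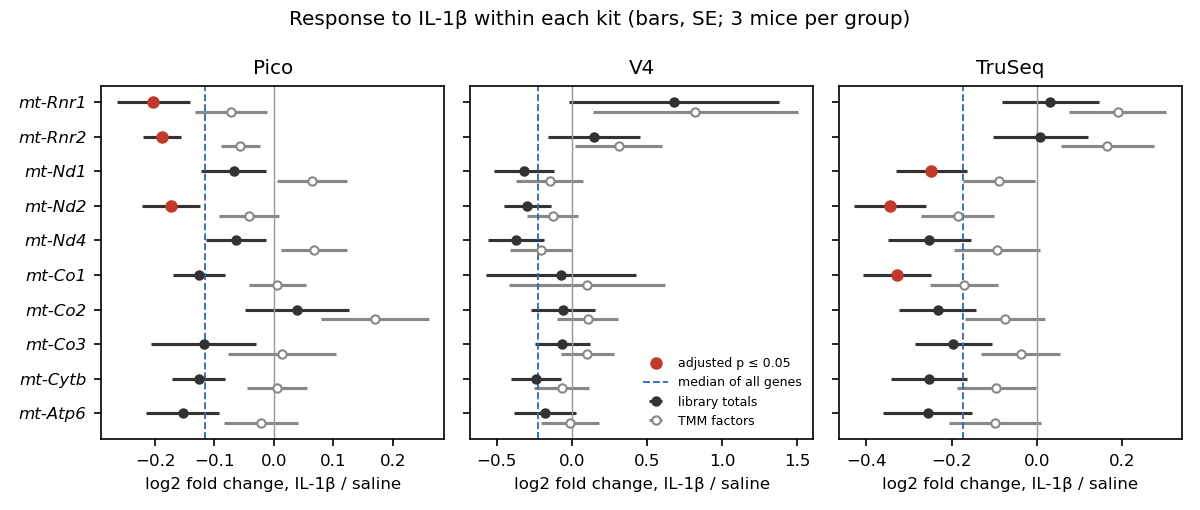
Log2 fold changes of IL-1β against saline of each member from limma-voom, with SE bars, in a panel per kit with its own scale: filled points with library totals (red, adjusted p of at most 0.05), open points with TMM factors, and a dashed line at the median of all genes. The called members lie at -0.20 to -0.17 in Pico and -0.34 to -0.25 in TruSeq, and open points lie to the right of the filled ones throughout.

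In V4 no member was called, where 7.41% of all genes were called lower and 3.6% higher, and none had an unadjusted p under 0.05 in limma-voom. The groups of all 10 members overlapped, where 18.6% of all genes were lower without overlap. Library U9576 lay apart from the other saline libraries. Its share of mt-Co1 was 0.106%, against 0.545% and 0.555% in the other saline mice, and its share of mt-Rnr1 was 0.00448%, against 0.000483% and 0.000513%. Against the median of the kit, U9576 deviated by log2 1.83 in mt-Rnr1, 0.88 in mt-Rnr2 and -1.69 in mt-Co1, and I9579 by 1.23, 0.61 and -0.55. The other saline libraries deviated the other way, U9574 by -1.38, -0.46 and 0.67 and U9575 by -1.30, -0.26 and 0.70. Over the 10 members the median absolute deviation was 0.39 in I9579, 0.40 in U9576, 0.39 in U9574 and 0.41 in U9575, against 0.15 in I9582 and 0.07 in I9583, so that 4 of the 6 V4 libraries lay about equally far from the kit median. In both libraries mt-Co2, mt-Co3 and mt-Atp6 were above the kit median by 0.37 to 0.51. In Pico and TruSeq, I9579 and U9576 deviated by at most 0.15 in any member. Without U9576, V4 called 5 members lower, where 8.51% of all genes were: mt-Co1 (log2 -0.87 ± 0.16, adjusted p = 0.0192), mt-Nd1 (-0.61 ± 0.08, adjusted p = 0.00719), mt-Nd4, mt-Cytb and mt-Nd2. Without both I9579 and U9576, a fit chosen after seeing the data that left 2 libraries per group, mt-Co1 (-0.69 ± 0.08, adjusted p = 0.0331) and mt-Nd1 (-0.60 ± 0.09, adjusted p = 0.0434) were called lower, where 2.85% of all genes were, and mt-Rnr1 had a log2 fold change of 1.33 ± 0.29 (adjusted p = 0.0776).

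**Figure D5:**
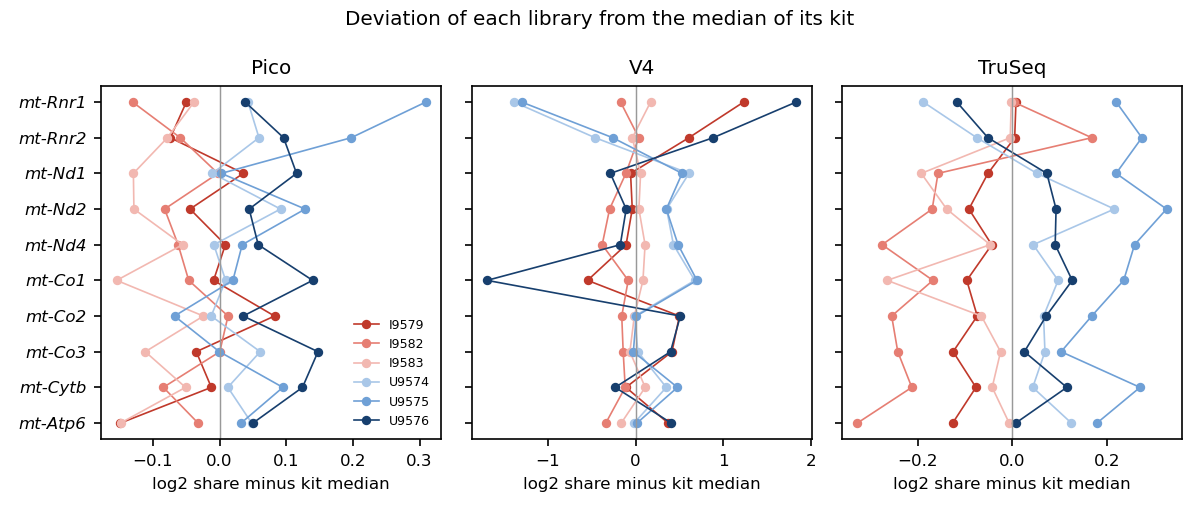
Log2 share of each member minus the median of its kit, with a line per mouse (reds, IL-1β; blues, saline) and a panel per kit whose horizontal scales differ. In V4, U9576 and I9579 run together, high in the rRNAs and low in mt-Co1, with U9576 at 1.83 in mt-Rnr1 and -1.69 in mt-Co1, U9574 and U9575 run the other way, and U9576 and I9579 stay within 0.15 of the median for every member in the other kits.

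A difference in response between kits was fitted as the interaction of kit and treatment. None of the 10 members was called for Pico against TruSeq, V4 against TruSeq or Pico against V4, and neither was any other gene (0% in each comparison). At an unadjusted p under 0.05 there were 2 members for Pico against TruSeq, mt-Co1 and mt-Co2, where 5.49% of all genes were, and 0 for the others. With TMM factors there were again 2, but they were mt-Rnr1 and mt-Rnr2. With the mouse as a block, which uses the pairing of the libraries by mouse, 0 members were called again, and 8 had an unadjusted p under 0.05 for Pico against TruSeq, where 7.43% of all genes did. A call for the rRNAs in Pico and not in TruSeq, or for mt-Co1 in TruSeq and not in Pico, is therefore not shown to be a difference between the kits. Without U9576, 1 member was called for Pico against V4, mt-Nd1, with a difference of 0.58 in log2 fold change (adjusted p = 0.0359), where 0.243% of all genes were. Without both I9579 and U9576 the 1 member called there was mt-Co1, with a difference of 0.57 (adjusted p = 0.039), where 0.141% were. Over all genes 945, 900 and 1090 had an unadjusted p under 0.05 for Pico against TruSeq, Pico against V4 and V4 against TruSeq. DESeq2 called 0 members in each. Of all genes it called 2 above 0 and 2 below for Pico against TruSeq. These numbers were 12 and 2 for Pico against V4, and 9 and 53 for V4 against TruSeq.

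The other 5 mitochondrial mRNAs, mt-Nd3, mt-Nd4l, mt-Nd5, mt-Nd6 and mt-Atp8, code for further subunits of complex I and of ATP synthase and held 0.672% to 0.775% of the counts in Pico, 0.358% to 0.517% in TruSeq and 0.098% to 0.109% in V4. Most of these were mt-Nd5, with 0.634% to 0.738%, 0.336% to 0.491% and 0.0852% to 0.092%. After IL-1β mt-Nd5 fell in Pico by 0.16 ± 0.05 (log2, adjusted p = 0.0246) and in TruSeq by 0.36 ± 0.08 (adjusted p = 0.00954), and mt-Nd4l fell in TruSeq by 0.5 ± 0.17 (adjusted p = 0.0407). With TMM factors neither was called. The short genes mt-Nd4l (9 to 68 counts in V4), mt-Atp8 (51 to 284) and mt-Nd3 (130 to 306) lie inside the chromosome 1 copy and wholly inside the table spans of their neighbours. The gene mt-Nd6 is the only mRNA on the other strand, and its annotated end overlaps that of mt-Nd5 by 14 bases. It held 1183 to 2148 counts in V4 against 314 to 628 in TruSeq, a higher share in 6 of 6 mice (log2 1.86 ± 0.56). In Pico, which keeps the strand, its share was also higher than in TruSeq in 6 of 6 mice (log2 2.23 ± 0.46). Since V4 does not keep the strand, reads of mt-Nd6 and of transcripts from the opposite strand cannot be told apart in V4. The part of this in the V4 value was not tested. Mitochondrial tRNA genes summed to 4 to 13 counts in a Pico library and to at most 1 in TruSeq and V4.

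The annotated nuclear gene Gm10925 lies inside the chromosome 1 copy, with exons at chr1:24620814-24621401 and chr1:24621444-24621627 on the minus strand. The first of these lies over the copy of mt-Atp6, and the second over that of most of mt-Atp8 and the start of mt-Atp6. It held 6970 to 8947 counts in Pico, 3825 to 5525 in TruSeq and 1156 to 2153 in V4. These were 0.95 to 1.06, 1.03 to 1.2 and 0.646 to 0.813 times the counts of mt-Atp6. Its log2 ratio of Pico to TruSeq was 2.42 ± 0.14, beside 2.60 ± 0.16 for mt-Atp6. Reads of the gene and of mt-Atp6 or mt-Atp8 have the same sequence over the copy, so each count may hold reads of the others. After IL-1β its log2 fold change was -0.19 ± 0.07 in Pico (adjusted p = 0.0643) and -0.22 ± 0.10 in TruSeq (adjusted p = 0.141).

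Nuclear genes that make and handle mitochondrial RNA moved in both directions after IL-1β. Of 50 listed gene entries (49 symbols, with Nsun4 listed in 2 rows), 10 rose and 10 fell in TruSeq, where 12.3% of all genes rose and 21.8% fell. In Pico 3 rose and 8 fell, beside 6.78% and 10.8% of all genes, and in V4 0 rose and 7 fell, beside 3.6% and 7.41%. With TMM factors 14 rose and 10 fell in TruSeq, where 16.7% of all genes rose and 16.1% fell, and 5 rose and 7 fell in Pico, where 9.16% rose and 8.16% fell. Nothing particular to the list is read from these counts. Of the 14 genes of mitochondrial transcription and replication, 1 rose and 2 fell in TruSeq, 0 rose and 2 fell in Pico, and 0 rose and 3 fell in V4. The accessory subunit of the mitochondrial DNA polymerase, Polg2, fell in all 3 kits, with log2 fold changes of -2.96 ± 0.29 in TruSeq (mean counts 17.3 ± 7.09 after IL-1β and 136 ± 20.8 after saline; SD, n = 3), -2.50 ± 0.57 in Pico and -2.78 ± 0.57 in V4. Tfam, which packages mitochondrial DNA and starts its transcription, fell in TruSeq (-0.76 ± 0.11, adjusted p = 6.7e-04) and V4 (-1.04 ± 0.24, adjusted p = 0.02) and had -0.56 ± 0.21 in Pico (adjusted p = 0.0745). With TMM factors the V4 call of Tfam was lost (adjusted p = 0.051). The termination factor family gene Mterfd1 rose in TruSeq (0.43 ± 0.11, adjusted p = 0.016).

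Of the 30 entries for RNA processing and decay, 7 rose and 6 fell in TruSeq (11 and 6 with TMM factors), 2 rose and 3 fell in Pico (3 and 2), and 0 rose and 1 fell in V4 (1 and 0), beside the shares of all genes given above. The RNA helicase gene Ddx28 rose in TruSeq (1.27 ± 0.11, adjusted p = 3.3e-05) and Pico (1.08 ± 0.28, adjusted p = 0.0132) and had 0.75 ± 0.23 in V4. Grsf1, a binding protein of mitochondrial RNA granules, fell in all 3 kits, at -0.82 ± 0.11 in TruSeq, -0.60 ± 0.14 in Pico and -1.03 ± 0.23 in V4 (adjusted p = 0.0174; 0.0531 with TMM factors). Fastkd1, of a family that acts on mitochondrial mRNAs, fell in TruSeq (-1.25 ± 0.14) and Pico (-1.50 ± 0.31). Of the 6 nuclear regulators, 2 rose and 2 fell in TruSeq, 1 rose and 3 fell in Pico, and 0 rose and 3 fell in V4. The orphan nuclear receptor gene Esrra fell, with log2 fold changes of -1.57 ± 0.20 in TruSeq, -2.12 ± 0.43 in Pico and -1.25 ± 0.28 in V4. The coactivator gene Ppargc1b, at means of 6.33 to 11.3 counts after IL-1β, fell in all 3 kits too, with -2.54 ± 0.35 in TruSeq, and 2 of its 3 V4 libraries after IL-1β held 0 counts. Pprc1, a related coactivator, rose in TruSeq (1.63 ± 0.22, adjusted p = 4.0e-04) and Pico (1.45 ± 0.21, adjusted p = 1.5e-04).

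The protein genes of the mitochondrial ribosome, which joins the 2 rRNAs, mostly did not pass the test. Of 29 genes of the small subunit, 1 rose and 5 fell in TruSeq, where 21.8% of all genes fell, and 1 rose and 0 fell in Pico and V4. With TMM factors 3 fell in TruSeq. Mrps18b rose in each kit, at 0.68 ± 0.13 in TruSeq, 0.84 ± 0.23 in Pico and 0.86 ± 0.19 in V4. Mrps35 (-0.71 ± 0.12) and Mrps16 (-0.65 ± 0.12) fell in TruSeq, and in the other kits their adjusted p was 0.173 to 0.593. Of 47 genes of the large subunit, 0 rose in any kit, and 11 fell in TruSeq, 5 in Pico and 3 in V4, beside 21.8%, 10.8% and 7.41% of all genes, near the share of the list in each. Those with the smallest adjusted p in TruSeq fell in all 3 kits: Mrpl49 at -1.32 ± 0.12 (in Pico lost with TMM factors, adjusted p = 0.0624), Mrpl15 at -1.03 ± 0.09 and Mrpl12 at -0.81 ± 0.12. With TMM factors 4 genes of the large subunit rose and 6 fell in TruSeq, 0 rose and 2 fell in Pico, and 1 rose and 3 fell in V4. The medians in TruSeq were -0.13 for the small and -0.21 for the large subunit, beside -0.17 for all genes.

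Among 4190 nuclear genes that averaged 100 counts or more in each table, those with kit ratios closest to the summed rRNAs (log2 5.53 for Pico to TruSeq and -2.21 for V4 to TruSeq) were Crebbp (2.94 and -1.35), the nuclear noncoding RNA Neat1 (2.97 and -0.85), Trip11 (2.86 and -0.61), Gm10925 (2.42 and -1.55) and the nuclear noncoding RNA Malat1 (2.69 and -0.68). Their distances in this plane were 2.73 to 3.23, far above those found for the mRNAs. Closest to the summed mRNAs (-0.30 and -2.19) were Pafah1b1, Dusp11, Klhdc10, Yme1l1 and Tial1, at distances of 0.04 to 0.065. Likeness was taken from mean ratios over 6 mice and is a description.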

How the data were processed

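Liver RNA of 6 mice was measured with 3 kits in 18 libraries. The deposited values are gene counts, 1 table per kit. Per the study's methods and the submitters' processing notes, the authors aligned reads to mm9 with GSNAP, removed ribosomal reads and resampled reads to a like depth per kit with PORT before they counted genes. How many reads of the mitochondrial rRNAs that step removed was not tested. The labels do not say which run of the repeated Pico preparation was deposited. The counting of reads that match several places or overlapping genes is not given in the sources used here.

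IL-1β was compared with saline within each kit by limma-voom (limma 3.58.1, edgeR 4.0.16, R 4.3.3) on the counts with library totals as scale, over all genes of the table, with Benjamini-Hochberg adjustment and a threshold of 0.05. Differences in response were the interaction of kit and treatment in a joint fit. Kits were compared within mice on log2 shares (pseudocount 0.5, mean of at least 20 counts in both tables) with an exact two-sided sign-flip test, adjusted over all genes. Sums over the members were planned with an exact test and are given without a p, since the members were chosen by name with results known. Sequences, coordinates and overlaps were read from the mm9 reference, and copies found with blastn 2.17.0. Other steps used Python 3.11.15.

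The members and gene lists were chosen with earlier results of these data known. Genes named from a list were the 3 with the smallest adjusted p in TruSeq, and those named for likeness the 5 nearest of each kind. The same numbers name the same mouse in each kit, per the labels. Deviations from the group means correlated positively between libraries of the same mouse (r = 0.0619 to 0.408 across genes) and negatively between those of other mice (r = -0.325 to -0.0224). Since deviations cancel out within a group, the negative values follow from the positive ones and are no separate evidence of the pairing. Each group held 3 mice, and 3 against 3 allows no exact p under 0.1 for a single value. No libraries were near-identical. The alternatives were TMM factors, edgeR's quasi-likelihood test, DESeq2 1.42.0, a filter of 10 counts in 3 libraries, thinning to 4024632 counts, other library sizes and thresholds, the mouse as a block, and leaving out each mouse. The fits were tested on simulated data. Reads carry no molecular identifiers, so amplified copies cannot be told from separate molecules, and counting error alone does not set the precision of these counts.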

Additional observations from a re-analysis of the deposited data

How the results depend on the processing

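Against 3 members called in Pico, 1 was called with a filter of 10 counts in 3 libraries, where 1299 of 11318 genes rose and 2134 fell. At an adjusted p of at most 0.01 it was 1, where 756 of 18108 genes rose and 1128 fell. At 0.1 it was 5, where 1607 rose and 2543 fell. With library sizes without the mitochondrial genes it was 5, where 1184 rose and 2028 fell. Against 3 in TruSeq, 7 were called at 0.1, where 2841 of 19424 genes rose and 5003 fell. At 0.01 it was 0, where 1465 rose and 2616 fell. With TMM factors, edgeR and DESeq2 0 were called in each, beside the calls over all genes given above. Leaving out a mouse gave 1 to 3 calls in Pico, 2 to 3 in TruSeq and 0 to 5 in V4, where 0 were called with all mice and 2 without I9579 and U9576. Every member called in these fits was lower. Without 1 mouse, genes called lower numbered 1024 to 1632 in Pico, 3239 to 3585 in TruSeq and 567 to 1504 in V4. For Pico against V4 the number called for a different response was 0 to 1 on leaving out a mouse and 1 without both mice. The log2 ratio of the members' share after IL-1β was -0.027 with TMM-scaled sizes and -0.12 without the rRNAs in Pico, and -0.13 with TMM-scaled sizes in TruSeq. Between kits it was -0.30 for Pico to TruSeq and 1.89 for Pico to V4 without the rRNAs. The rRNA share of the members for V4 to TruSeq went from -0.33 to 0.16 on leaving out a mouse, and the ratio of mt-Nd4 for Pico to TruSeq from -0.086 to 0.00094. 

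Directions of single members that turned had no adjusted p under the threshold. In Pico, DESeq2 gave 0.058 for mt-Nd1, 0.062 for mt-Nd4 and 0.0068 for mt-Co3, edgeR 0.063, 0.067 and 0.011 for these and 0.0040 for mt-Co1 and 0.0041 for mt-Cytb, and limma-voom with TMM factors 0.064, 0.067, 0.014, 0.0059 and 0.0049 for mt-Nd1, mt-Nd4, mt-Co3, mt-Co1 and mt-Cytb. In V4, DESeq2 gave 0.12 for mt-Co2, 0.12 for mt-Co3 and 0.010 for mt-Atp6, edgeR 0.12, 0.11 and 0.0087, and limma-voom with TMM factors 0.10 for mt-Co1, mt-Co2 and mt-Co3. In TruSeq mt-Rnr2 was at -0.010 with library sizes without the mitochondrial genes. On leaving out a mouse, V4 gave -0.87 to 0.33 for mt-Co1, -0.26 to 0.11 for mt-Co2, -0.24 to 0.070 for mt-Co3 and -0.11 to 0.56 for mt-Rnr2, and TruSeq gave -0.048 to 0.16 for mt-Rnr1 and -0.055 to 0.12 for mt-Rnr2. The cause was not tested. Within a kit no paired analysis was possible because each mouse was in 1 group. Between kits, the mouse as a block left 0 members called for a different response. Every gene of the tables had a count, so leaving out the filter was the same fit. Of the recomputed values that answer a comparison, 131 were classed as the same, 25 as moved and 5 as turned in direction. They mix log2 ratios with counts of members called, which have no direction. A ratio was classed as the same when within the SD of the main value. A count was classed so when equal or close to the main count, including 0 against 0. The loss of all calls with TMM factors was classed as moved.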
